A study of Homo sapiens with 4 samples.

Results

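Mitochondrial ribosomal protein genes, the nuclear genes whose symbols begin with MRPL (large subunit) or MRPS (small subunit), were followed in USP2-AS1 knockdown cells. Members were the protein-coding genes of the deposited RNA-seq table with such a symbol followed by a digit, and 33 of the 6828 listed genes met this rule, 25 MRPL and 8 MRPS. A549, a human lung adenocarcinoma cell line of epithelial origin, was infected with lentiviruses expressing a control shRNA (shctrl) or an shRNA against the long noncoding RNA USP2-AS1 (shUSP2-AS1). The shRNAs were cloned in PLKO.1, puromycin selection of infected cells is given in the study's methods, and RNA was extracted 72 h after infection and purified with poly-T beads. There were 2 libraries per group, described as biological replicates. Which USP2-AS1 shRNA was used is not given in the sources used here, so that 1 knockdown in 1 cell line was compared.

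The mitochondrial ribosome translates the few mRNAs encoded by mitochondrial DNA, which make core subunits of the respiratory chain and ATP synthase. Its rRNAs are transcribed inside the organelle, whereas all of its proteins are encoded in the nucleus, made in the cytosol and imported. Many of these proteins descend from bacterial ribosomal proteins and others are specific to mitochondria, and defects in several of them cause combined deficiencies of oxidative phosphorylation.

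The table lists only genes that passed an adjusted p of 0.05 in the comparison its authors made, so being listed already means a difference between these libraries, and the direction and the size are what remains to be read. The RefSeq annotation holds 77 protein-coding MRPL and MRPS genes, of which the 33 members are 42.9%. Among MRPL genes 25 of 49 were listed (51.0%) and among MRPS genes 8 of 28 (28.6%), beside 6372 of 20052 protein-coding genes in all (31.8%). The other 44 were not analysed here, so that a statement about members does not extend to every protein of the mitochondrial ribosome. The recovered reads on listed genes ranged from 10772788 to 14120472 per library, and members had from 128 to 2704 reads in a library. USP2-AS1 itself had normalised read counts of 23.2 and 24.2 in shctrl and of 2.10 and 6.16 in shUSP2-AS1 (log2 fold change -2.39, standard error 0.56, limma with Benjamini-Hochberg adjusted p = 0.000597).

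All 33 members were lower in shUSP2-AS1 than in shctrl cells. Each passed the limma test at a Benjamini-Hochberg adjusted p below 0.05 over the 6812 genes tested, with adjusted p between 1.47e-09 and 0.00122, and no member was higher. Passing was set in advance by the listing, as 6811 of the 6812 genes passed in either direction. Of all genes tested, 49.4% were lower and 50.6% higher by the same rule. In all 33 members both shUSP2-AS1 libraries lay below both shctrl libraries, which held for 49.3% of all genes tested. The shUSP2-AS1 mean was between 43.2% and 85.0% of the shctrl mean. The median log2 fold change of the members was -0.53, against 0.19 over all genes tested, a difference of -0.71. Another scaling moves all genes alike and leaves this difference as it is. It was -0.36 when only genes with at least 10 reads in every library were compared, because the median over all genes was then -0.16. MRPS10 was the only member at a log2 fold change of -1 or lower, a size that 13.5% of all genes tested reached, 17 members lay between -1 and -0.5, and 15 lay above -0.5. The other 3329 listed genes that were lower had a median of -0.68, and 27.7% of them were at -1 or lower, against 3.03% of the members. These counts depend on the scaling, since 4 members were at -1 or lower under RLE scaling (MRPS10, MRPS26, MRPL55 and MRPL3, 12.1% of members against 34.2% of the other lower genes) and with DESeq2, and 2 under TMM scaling or without shctrl replicate 2 or shUSP2-AS1 replicate 2.

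**Figure D1:**
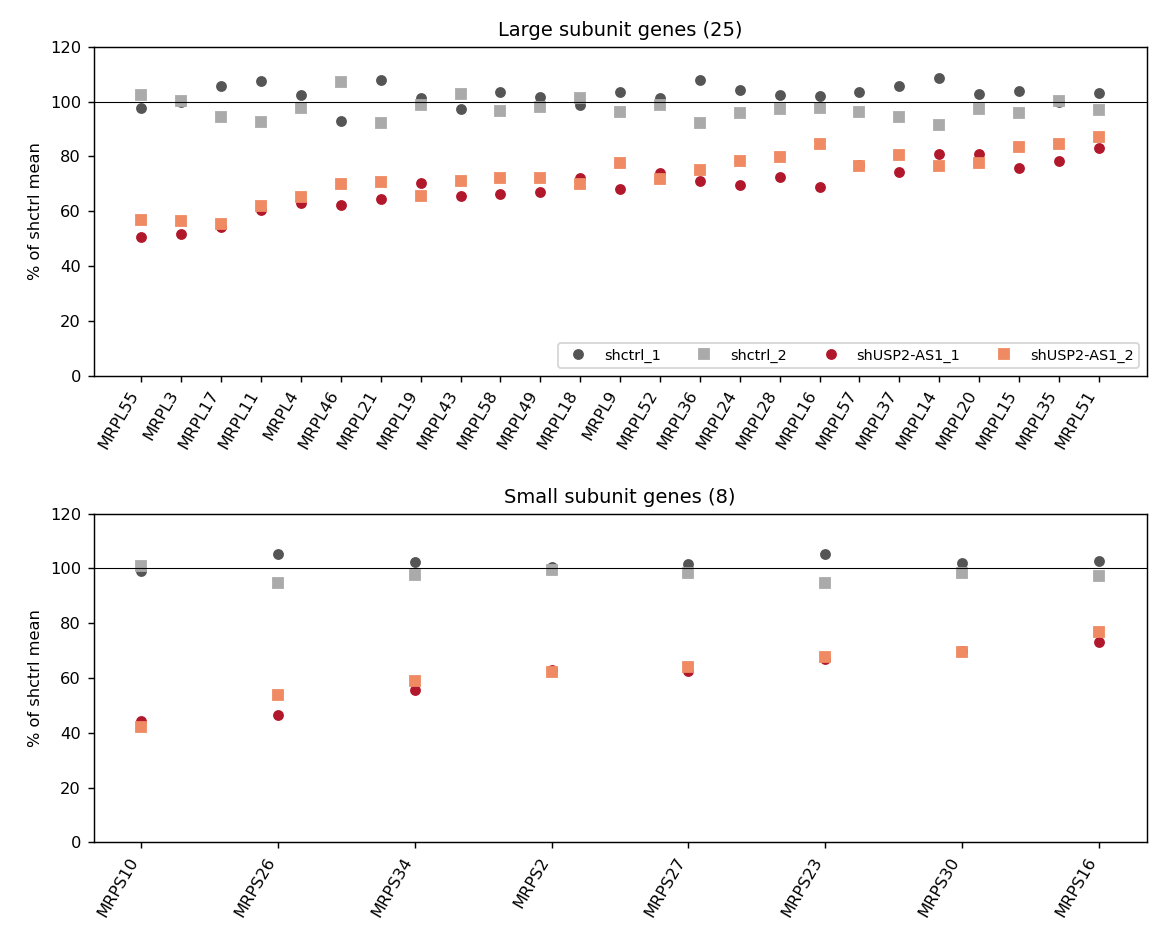
Normalised read count of each member in each of the 4 libraries, as a percent of the mean of the shctrl libraries (line at 100%), for the 25 large subunit genes (top) and the 8 small subunit genes (bottom), ordered by log2 fold change. Grey symbols are shctrl and red and orange symbols shUSP2-AS1, and for all 33 genes both shUSP2-AS1 libraries sit below both shctrl libraries.

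The promoters of 5 members are shown because these genes include 4 of the 6 with the strongest decrease, and because MRPL52 starts head to head with a gene that moved the other way. Each sequence is from RefSeq (GRCh38.p14) and runs 5′ to 3′ on the strand of the gene, from 130 bases before the annotated start to 20 bases after it. The intervals are chr6:42217842-42217991 (minus strand) for MRPS10, chr16:1773115-1773264 (minus) for MRPS34, chr3:131502952-131503101 (minus) for MRPL3, chr11:6683321-6683470 (minus) for MRPL17 and chr14:22829757-22829906 (plus) for MRPL52. Capitals mark matches, on either strand, to the core motifs of ETS family factors (CCGGAAG), YY1 (AANATGGCG) and NRF1 (GCGCA and GCGC with any base between them), which are factors known to act at promoters of nuclear genes for mitochondrial proteins.
MRPS10 promoter: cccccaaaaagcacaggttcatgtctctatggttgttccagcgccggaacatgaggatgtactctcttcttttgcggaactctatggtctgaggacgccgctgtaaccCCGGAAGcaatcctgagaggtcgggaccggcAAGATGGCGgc
MRPS34 promoter: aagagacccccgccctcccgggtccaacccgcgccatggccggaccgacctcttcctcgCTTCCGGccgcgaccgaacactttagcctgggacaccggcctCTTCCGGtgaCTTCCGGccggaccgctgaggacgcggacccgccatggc
MRPL3 promoter: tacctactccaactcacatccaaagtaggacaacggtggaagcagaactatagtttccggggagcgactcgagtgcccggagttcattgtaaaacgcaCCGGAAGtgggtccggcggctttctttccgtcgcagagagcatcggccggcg
MRPL17 promoter: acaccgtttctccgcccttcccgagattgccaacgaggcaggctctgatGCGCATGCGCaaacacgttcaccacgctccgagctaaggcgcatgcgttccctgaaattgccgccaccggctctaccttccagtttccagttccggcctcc
MRPL52 promoter: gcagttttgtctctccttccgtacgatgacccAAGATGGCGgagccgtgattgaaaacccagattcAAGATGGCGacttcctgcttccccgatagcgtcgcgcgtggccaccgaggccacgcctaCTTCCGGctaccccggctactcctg
MRPS10, the member that fell most, has an ETS match 22 bases before its start and a YY1 match from base 10 after it. In MRPS34 there are 3 ETS matches, at 71, 29 and 19 bases before the start. MRPL3 has 1 ETS match, 32 bases before the start, and MRPL17 has an NRF1 match 81 bases before its start and no ETS or YY1 match. MRPL52 holds 2 YY1 matches and an ETS match. MRPS26 and MRPL55, also among the 6 with the strongest decrease, are not shown. MRPS26 has an ETS match 37 bases before its start. MRPL55 has no match to any of these motifs in its window of 300 bases.

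Among the small subunit genes, all 8 fell, with log2 fold changes from -1.21 to -0.41 and a median of -0.67. MRPS10 (chromosome 6, 42206807 to 42217861, minus strand, hg38), the counterpart of a bacterial protein of the small subunit, had normalised read counts of 641 and 651 in shctrl and of 287 and 271 in shUSP2-AS1. Its shUSP2-AS1 mean was 43.2% of the shctrl mean (log2 fold change -1.21, standard error 0.09, limma with Benjamini-Hochberg adjusted p = 1.47e-09). This was the lowest percentage among the members. MRPS26 (chromosome 20, 3046052 to 3048250, plus strand), a protein specific to mitochondria, had counts of 1759 and 1580 in shctrl and of 779 and 901 in shUSP2-AS1. The shctrl libraries differed by more than those of MRPS10, but the higher shUSP2-AS1 value was still far below the lower shctrl value. The log2 fold change was -0.99 (standard error 0.08, limma with Benjamini-Hochberg adjusted p = 1.83e-09), which lies just outside the limit of -1. MRPS34 (chromosome 16, 1771890 to 1773150, minus strand), a mitochondria-specific protein of the small subunit in which variants cause Leigh syndrome, had counts of 1526 and 1455 in shctrl and of 829 and 876 in shUSP2-AS1 (log2 fold change -0.81).

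The other small subunit genes fell by less. MRPS2, a bacterial-type protein, had counts of 1254 and 1243 in shctrl and of 784 and 777 in shUSP2-AS1 (log2 fold change -0.68). MRPS27, a pentatricopeptide repeat protein, had counts of 2109 and 2045 in shctrl and of 1300 and 1331 in shUSP2-AS1 (log2 fold change -0.66). In both genes the libraries of a group were close to each other and the groups were well apart. MRPS23 had counts of 1664 and 1499 in shctrl and of 1060 and 1068 in shUSP2-AS1 (log2 fold change -0.57). MRPS16, a bacterial-type protein in which variants cause a fatal deficiency of oxidative phosphorylation, had the most reads of the members, with counts of 2613 and 2480 in shctrl and of 1862 and 1959 in shUSP2-AS1. Its log2 fold change of -0.41 (standard error 0.06, limma with Benjamini-Hochberg adjusted p = 2.47e-06) was the smallest decrease among the MRPS genes. MRPS30 carries a small subunit symbol, but its protein sits in the large subunit. It had counts of 845 and 815 in shctrl and of 582 and 576 in shUSP2-AS1 (log2 fold change -0.52), within the range of both subunits.

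Among the large subunit genes, all 25 fell, with log2 fold changes from -0.89 to -0.23 and a median of -0.46. MRPL55 (chromosome 1, 228106679 to 228109312, minus strand), a mitochondria-specific protein, had normalised read counts of 513 and 540 in shctrl and of 267 and 299 in shUSP2-AS1, which gave a log2 fold change of -0.89 (standard error 0.10, limma with Benjamini-Hochberg adjusted p = 1.97e-07). MRPL3 (chromosome 3, 131462212 to 131502983, minus strand), whose bacterial counterpart reaches close to the peptidyl transferase centre, had counts of 1362 and 1364 in shctrl and of 702 and 768 in shUSP2-AS1. Its log2 fold change was also -0.89 (standard error 0.07, limma with Benjamini-Hochberg adjusted p = 1.98e-09). MRPL17 (chromosome 11, 6680385 to 6683340, minus strand), a protein at the exit of the polypeptide tunnel, had counts of 1535 and 1368 in shctrl and of 787 and 802 in shUSP2-AS1 (log2 fold change -0.87, standard error 0.07, limma with Benjamini-Hochberg adjusted p = 3.58e-09). These 3 genes stood below the rest of the large subunit, the next of which was MRPL11 at -0.70.

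By structural site, MRPL11 was the only listed member of the stalk base, the region where translation factors bind. It had counts of 852 and 734 in shctrl and of 481 and 491 in shUSP2-AS1 (standard error of the log2 fold change 0.09, limma with Benjamini-Hochberg adjusted p = 7.07e-07). At the tunnel exit, MRPL24 had counts of 1536 and 1412 in shctrl and of 1025 and 1156 in shUSP2-AS1, which gave -0.44 on the log2 scale against the -0.87 of MRPL17, each with a standard error of 0.07. The difference between these 2 genes was not tested. In the central protuberance, MRPL58, a peptidyl-tRNA hydrolase that became part of the ribosome and also rescues stalled ribosomes, had counts of 895 and 835 in shctrl and of 572 and 623 in shUSP2-AS1 (log2 fold change -0.53). MRPL46, of the same site, had counts of 201 and 232 in shctrl and of 135 and 151 in shUSP2-AS1. With the fewest reads of the members, it had the largest standard error (log2 fold change -0.59, standard error 0.14, limma with Benjamini-Hochberg adjusted p = 0.000627). MRPL4, whose bacterial counterpart lines the tunnel, had counts of 788 and 751 in shctrl and of 485 and 501 in shUSP2-AS1 (log2 fold change -0.64).

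The smallest decreases were all in large subunit genes. MRPL51, a mitochondria-specific protein, had counts of 1884 and 1770 in shctrl and of 1517 and 1588 in shUSP2-AS1, which was 85.0% of the shctrl mean (log2 fold change -0.23, standard error 0.06, limma with Benjamini-Hochberg adjusted p = 0.00121). MRPL35 had counts of 986 and 987 in shctrl and of 771 and 832 in shUSP2-AS1 (log2 fold change -0.30). MRPL15 had counts of 1082 and 999 in shctrl and of 790 and 870 in shUSP2-AS1 (log2 fold change -0.33). For these bacterial-type proteins and for MRPL51 the groups were separate but close. MRPL20, the counterpart of a bacterial protein needed for assembly of the large subunit, had counts of 991 and 937 in shctrl and of 779 and 747 in shUSP2-AS1 (log2 fold change -0.34). When limma tested for a change beyond 1.2-fold, 25 of the 33 members were lower, all 8 small and 17 of 25 large subunit genes. Of all genes tested 2722 (40.0%) were lower by this test, against 3362 lower without the limit. Most genes that were lower thus passed, members and others alike. MRPL20 (Benjamini-Hochberg adjusted p = 0.176), MRPL15 (0.224), MRPL35 (0.330) and MRPL51 (0.703) were among the 8 that did not pass, with MRPL14, MRPL16, MRPL37 and MRPL57. The other 13 large subunit genes (MRPL21, MRPL19, MRPL43, MRPL49, MRPL18, MRPL9, MRPL52, MRPL36, MRPL28, MRPL16, MRPL57, MRPL37 and MRPL14) had log2 fold changes from -0.56 to -0.34.

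The subunits were set side by side as a description, since members are not replicates of a condition. The summed normalised read count of the large subunit genes was 26562 and 25066 in shctrl and 17939 and 18919 in shUSP2-AS1 (25814 ± 1057 against 18429 ± 693, SD, n = 2). For the small subunit genes the sum was 12411 and 11769 in shctrl and 7483 and 7758 in shUSP2-AS1 (12090 ± 454 against 7621 ± 195, SD, n = 2). Both sums were lower in both knockdown libraries, by more than the libraries of a group differed. The ratio of the large to the small sum was 2.14 and 2.13 in shctrl and 2.40 and 2.44 in shUSP2-AS1, so that it was higher in both shUSP2-AS1 libraries. With MRPS30 counted in the large subunit, as its structure places it, the ratio was 2.37 and 2.36 in shctrl and 2.68 and 2.71 in shUSP2-AS1. With 2 libraries per group an exact permutation test cannot give a two-sided p below 0.333, and none was run. The ratio covers listed genes with MRPL and MRPS symbols and not the whole ribosome. It leaves out 4 listed mitoribosomal proteins with other symbols, whose summed count was 5868 and 5363 in shctrl and 4796 and 5039 in shUSP2-AS1. That sum was 87.6% of shctrl, against 63.0% for the MRPS and 71.4% for the MRPL genes. Among them, DAP3 of the small subunit was higher in shUSP2-AS1. The ratio with them was not calculated, so the rise was seen only for genes chosen by symbol.

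**Figure D2:**
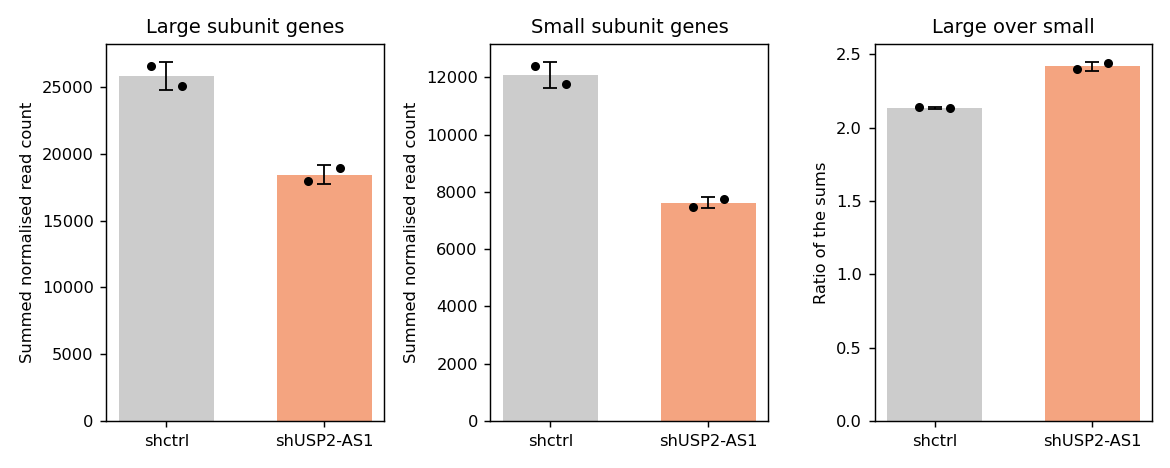
Sums of the normalised read counts of the 25 large subunit genes (left) and the 8 small subunit genes (middle) in each library, and the ratio of the sums (right). Bars are means of the 2 libraries of a group, error bars are SD and points are libraries, and the ratio is 2.14 ± 0.00730 in shctrl and 2.42 ± 0.0292 in shUSP2-AS1.

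Gene by gene, the subunits overlapped. The median log2 fold change was -0.46 for large and -0.67 for small subunit genes, a difference of 0.21. With MRPS30 counted in the large subunit it was 0.20. The spread of the 0.21 between replicates was 0.045 (SD), which leaves out the spread between genes. These medians cover listed genes only, 25 of 49 MRPL and 8 of 28 MRPS genes. Of the 25 large subunit genes, 16 lay within the range of the small subunit genes and 9 lay above every one of them. DAP3, a small subunit protein with another symbol, was left out of this count and lay above all members (0.22). Of the 8 members with the lowest values, 4 were small subunit genes, and 7 of the 8 small subunit genes lay below the large subunit median. When shUSP2-AS1 replicate 2 was left out, the difference of the medians was 0.15. Origin separated the members less than subunit did, with a median of -0.46 for the 19 bacterial-type and -0.54 for the 14 mitochondria-specific proteins. Within the large subunit these medians were -0.45 (16 genes) and -0.53 (9 genes), and within the small subunit -0.68 (3 genes) and -0.66 (5 genes).

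Levels were compared between members as normalised read count per kilobase of gene length. In shctrl cells the mean level ranged from 33.8 for MRPL46 to 1643 for MRPS26, a 48.6-fold range, with a median of 349, and in shUSP2-AS1 cells the median was 271. After MRPS26 came MRPS34 (1365), MRPL51 (1317) and MRPS16 (911) in shctrl cells. MRPS34 was above MRPL51 within each shctrl library (1397 against 1358 and 1332 against 1276), by less than the 2 libraries differed for either gene. The difference between these neighbours in the order was not tested. In shUSP2-AS1 cells MRPL51 was first, with 1093 and 1144, ahead of MRPS26 with 767 and 886 and MRPS34 with 759 and 802. Otherwise the order changed little, with a Spearman correlation of 0.98 between the groups across all 33 members, which share their libraries. At the lower end, MRPL46, MRPS30 (134) and MRPL19 (169) were the last in both groups. Level and change were only weakly related across members, as the Spearman correlation of the shctrl level per kilobase with the log2 fold change was 0.20 across the 33 members.

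**Figure D3:**
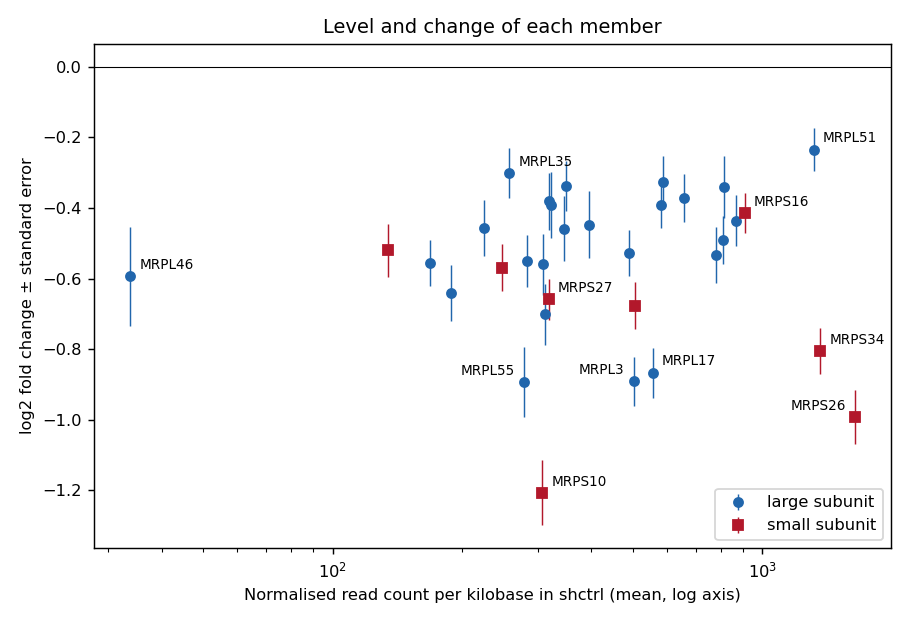
Log2 fold change (shUSP2-AS1 over shctrl, bars show the standard error from limma) of each of the 33 members against its mean normalised read count per kilobase in shctrl cells, on a log axis. Circles are large and squares small subunit genes, all lie below 0, and both MRPS10 at 307 per kilobase and MRPS26 at 1643 per kilobase are among the strongest decreases.

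Reads that members may share with other genes were examined from the annotation, because the strand setting of the read counting is not given in the sources used here. In GENCODE release 44, 16 members share exon bases with another gene, most of all MRPL43 (38.1% of its exon bases, with TWNK and SEMA4G), MRPL9 (36.0%), MRPS34 (31.2%, with EME2) and MRPL51 (27.6%, with NCAPD2). The values of these genes are uncertain, and the part of their reads that comes from the shared bases was not measured. NCAPD2 had counts of 4545 and 4632 in shctrl and of 828 and 847 in shUSP2-AS1. MRPL20 shares 15.6% of its exon bases with other genes, among them its antisense gene MRPL20-AS1, which was lower as well (358 and 345 in shctrl, 235 and 256 in shUSP2-AS1). The 17 members without shared exon bases were all lower, with a median of -0.49. Among them the median was -0.45 for 13 large and -0.78 for 4 small subunit genes. RefSeq also holds 32 pseudogenes of 15 members, 8 of them of MRPL57 and 4 of MRPL35. The median was -0.41 for members with a pseudogene and -0.56 for those without, and how reads that match several places were counted was not stated.

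Promoter windows of 300 bases (250 before to 50 after the start) were found in RefSeq for 30 of the 33 members, 37 windows in all, and MRPL15, MRPL21 and MRPL35 had no entry. The ETS motif CCGGAAG was present in 14 of the 30 members (46.7%), namely in 9 of 22 large and 5 of 8 small subunit genes. It was present in 20.6% of the 5106 other listed genes with a window (25.5% of those lower and 15.7% of those higher). Counted by window, it was in 14 of the 37 windows of members (37.8%) and in 10.3% of all 35116 windows. The YY1 motif AANATGGCG was present in 7 members (23.3%), and by window in 7 of 37 (18.9%) against 3.19% of all windows. It was in 7.87% of the other listed genes (10.8% of those lower and 4.88% of those higher). For the other motifs the members were close to the other listed genes. The NRF1 motif was found in 4 members (13.3%, against 13.3%), the E-box CACGTG in 5 (16.7%, against 12.9%) and the E2F motif TTTNNCGC in 5 (16.7%, against 12.7%). Among other listed genes that were lower the shares were 16.6% for NRF1, 15.5% for the E-box and 16.6% for E2F. Among those higher they were 9.95%, 10.4% and 8.64%. By window the shares were 10.8% of those of members and 5.78% of all for NRF1, 13.5% and 7.26% for the E-box, and 16.2% and 6.89% for E2F. At least 1 motif was found in 25 members, 2 kinds or more in 8, and none in 5. Both strands were searched, no motif contains another in full, and a match describes these letters and not a bound site.

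**Figure D4:**
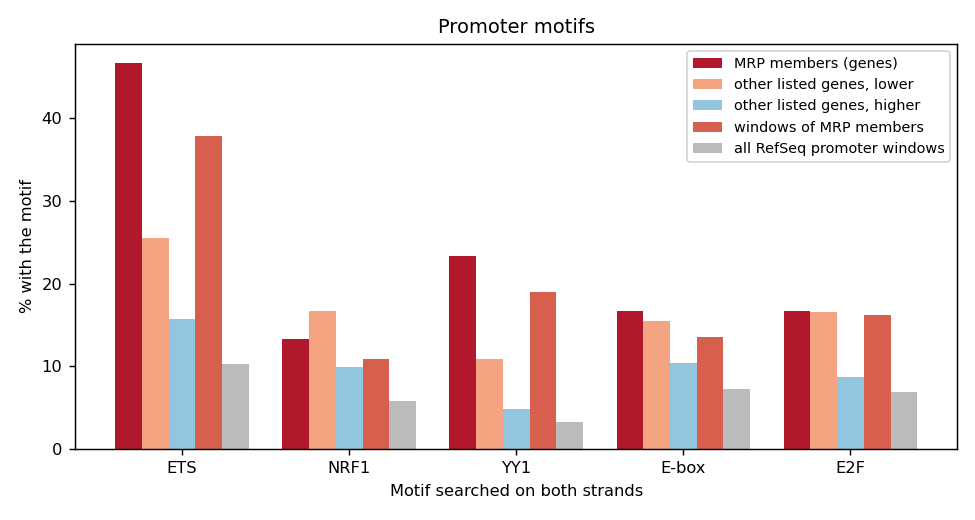
Percent of the 30 members with a RefSeq promoter window, and of other listed genes that were lower or higher in shUSP2-AS1 cells, that hold each motif, and percent of the 37 windows of members and of all RefSeq windows that hold it. By window, the ETS motif is in 37.8% of those of members and in 10.3% of all, and the YY1 motif in 18.9% and 3.19%.

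Some members lie beside a gene on the other strand. In 11 members a protein-coding gene starts head to head within 1000 bases, and 8 of these neighbours are listed, of which 6 were lower and 2 higher, a small count beside the 49.4% lower and 50.6% higher of all genes tested. The neighbours often moved by much more than the member. MRPL57 (log2 fold change -0.38) starts 106 bases from SKA3, a protein of the kinetochore, which had a log2 fold change of -3.75. MRPL51 overlaps the start of NCAPD2, a condensin subunit, at -2.45, and MRPL18 (-0.49) starts 109 bases from TCP1, a subunit of the cytosolic chaperonin, at -1.27. The difference between a member and its neighbour was not tested. MRPL43 (-0.55) overlaps the start of TWNK, the mitochondrial DNA helicase, at -1.25. Smaller decreases were found for NDUFS6 beside MRPL36 (-0.32) and for FAU beside MRPL49 (-0.24). The opposite direction was found for SLC7A7, an amino acid transporter that starts 59 bases from MRPL52. Its counts were 571 and 503 in shctrl and 1179 and 1182 in shUSP2-AS1 (log2 fold change 1.14, limma with Benjamini-Hochberg adjusted p = 3.58e-10), whereas MRPL52 had counts of 733 and 715 in shctrl and of 536 and 519 in shUSP2-AS1 (-0.46). PELI3, which overlaps the start of MRPL11, was also higher (0.50).

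Mitoribosomal proteins whose genes carry other symbols did not all follow the members. Of 5 such genes 4 were listed, and 3 were lower, PTCD3 (-0.45), GADD45GIP1 (-0.39) and AURKAIP1 (-0.33). DAP3, a GTP-binding protein of the small subunit, had counts of 1638 and 1543 in shctrl and of 1813 and 1896 in shUSP2-AS1 (log2 fold change 0.22, limma with Benjamini-Hochberg adjusted p = 0.00177), but it no longer passed when the reads were scaled by the median ratio over listed genes (RLE). Factors that assemble the mitochondrial ribosome moved with the members. Of 26 such genes 14 were listed and all 14 were lower, with a median of -0.62, beside 49.4% lower of all genes tested. They include DHX30, an RNA helicase (-0.66), MALSU1, an assembly factor of the large subunit (-0.84), and MTERF3 (-0.96). Of 20 mitochondrial translation factors 10 were listed and 9 were lower, with a median of -0.50, among them TUFM, the mitochondrial elongation factor that delivers tRNAs (-0.59), and LRPPRC, which stabilises mitochondrial mRNAs (-0.63). The exception was GFM1, an elongation factor for translocation (0.23), which did not pass under RLE scaling.

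The same direction was found for other nuclear genes of mitochondrial gene expression. Beside the counts that follow, 31.8% of all protein-coding genes were listed and 49.4% of all genes tested were lower. All 5 listed mitochondrial aminoacyl-tRNA synthetases (of 20) were lower, with a median of -0.48, and EARS2 was at -0.59. All 11 listed genes of mitochondrial transcription and RNA processing (of 20) were lower, with a median of -0.58. These include POLRMT, the mitochondrial RNA polymerase (-0.49), TFAM, which packages mitochondrial DNA and starts its transcription (-0.60), and ELAC2, which cuts the tRNA ends of the primary transcripts (-0.67). Of 12 regulators of mitochondrial biogenesis 5 were listed and all 5 were lower, with a median of -0.57. PPRC1, a coactivator of the PGC-1 family, had counts of 2353 and 2353 in shctrl and of 959 and 998 in shUSP2-AS1 (log2 fold change -1.27, limma with Benjamini-Hochberg adjusted p = 2.46e-12). SIRT1, a deacetylase, was at -1.17, GABPB1, a partner of an ETS family factor, at -0.57, NRF1 at -0.49 and MYC at -0.46.

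**Figure D5:**
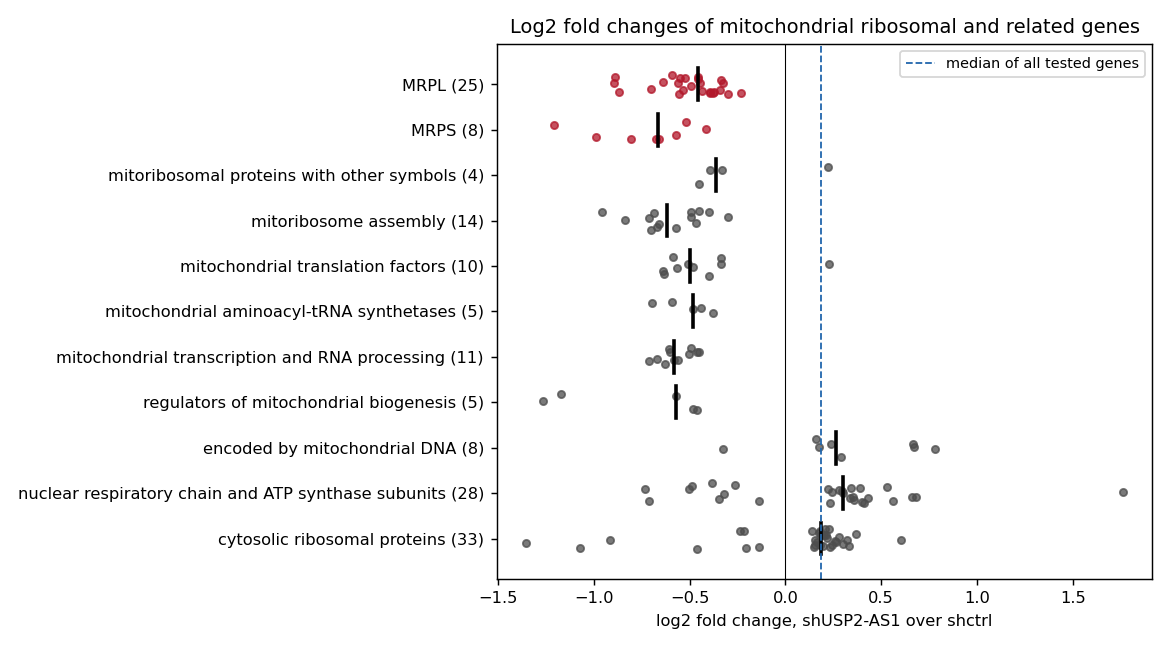
Log2 fold change (shUSP2-AS1 over shctrl) of each listed gene (points) by gene list, with the number of listed genes in parentheses and the list median as a black bar. The dashed line is the median of all genes tested (0.19), and the MRPL and MRPS genes (red) lie to the left of 0 in full, as do 4 of the other lists, whereas genes encoded by mitochondrial DNA, nuclear respiratory chain subunits and cytosolic ribosomal proteins lie mostly to the right.

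The RNAs that the mitochondrial ribosome contains or translates went mostly the other way. Of 15 genes encoded by mitochondrial DNA 8 were listed, 7 of them higher in shUSP2-AS1 cells, beside 50.6% higher of all genes tested. MT-RNR1, the rRNA of the small subunit, had counts of 17611 and 17761 in shctrl and of 30080 and 30779 in shUSP2-AS1 (log2 fold change 0.78, limma with Benjamini-Hochberg adjusted p = 9.62e-11). MT-RNR2, the rRNA of the large subunit, had counts of 159708 and 166681 in shctrl and of 260844 and 257223 in shUSP2-AS1 (log2 fold change 0.67). Both rRNAs were higher in both knockdown libraries, whereas every listed MRPL and MRPS gene was lower, under the scaling of the table and under the 3 others. These libraries were made from poly-T purified RNA, and the level of an rRNA in them need not follow its level in the cell. Reads that also match nuclear copies of mitochondrial DNA make these counts uncertain. Of the 6 listed mitochondrial mRNAs MT-ND4L was lower (-0.33) and 5 were higher, MT-ND6 by 0.67 and the others by 0.16 to 0.29 on the log2 scale, and under RLE scaling 3 of these 5 remained past the test.

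Nuclear genes of the respiratory chain and ATP synthase, whose products join those made on the mitochondrial ribosome, were divided. Of 28 listed subunits 19 were higher and 9 lower, with a median of 0.30, beside 50.6% higher of all genes tested. Under RLE scaling 16 were higher and 9 lower. SDHB (-0.73) and NDUFB10 (-0.49) were among those lower, and COX6C (0.68) and NDUFS1 (1.76) among those higher. Cytosolic ribosomal proteins were also divided, since of 33 listed genes 25 were higher and 8 lower, although under RLE scaling 10 were higher and 8 lower. Their median of 0.18 was close to the median of 0.19 over all genes tested, of which 50.6% were higher. Many of these genes have processed pseudogenes, which makes their counts uncertain. RPL39L, a paralog of a ribosomal protein, was at -1.35 and RPS27L, another paralog, at 0.60. RPS26 was lower (-0.46) and RPS19 higher (0.37). None of the 33 members was higher under the scaling of the table or under RLE, TMM or upper quartile scaling.

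The labelled cell type was compared with marker genes. Of 9 epithelial and alveolar markers 4 were listed, and KRT8, KRT18 and KRT7 were abundant in all libraries, KRT8 with counts of 87504 and 79777 in shctrl and of 48220 and 49976 in shUSP2-AS1. Of these, KRT18 (-1.05), KRT8 (-0.77) and KRT7 (-0.49) were lower and KRT19 (0.75) was higher. Of 9 markers of leukocytes, endothelial cells and fibroblasts COL1A1 was the only one listed, with counts of 261 and 293 in shctrl and of 530 and 618 in shUSP2-AS1 (log2 fold change 1.05). The part of these differences in the values of the members was not tested. As these are bulk libraries, less RNA per cell and fewer cells with that RNA cannot be told apart. The summed members made up 0.319% ± 0.0113 of the values on listed genes in shctrl and 0.210% ± 0.00583 in shUSP2-AS1 (SD, n = 2).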

How the data were processed

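RNA-seq of A549 cells gave 2 shctrl and 2 shUSP2-AS1 libraries, and library columns were matched to the labels by group and replicate number. According to the submitters' processing notes, HISAT2 (version 2.0.5), featureCounts (version 1.5.0-p3), DESeq2 (version 1.20.0) and hg38 were used. The strand setting of the counting was not given in the sources used here. The authors deposited a normalised signal in each library (reads over a size factor) for every gene of the table and the gene length. Each value was a whole number of reads (100% in each library, tolerance 0.01 reads), with 1 read worth 0.966 and 1.10 in shctrl and 1.05 and 0.880 in shUSP2-AS1, so reads were recovered for count tests. All 6828 genes in the table have an adjusted p-value below 0.05 in the authors' own comparison, whose fold changes and p-values were not used otherwise. Of these genes 105 have no symbol. Reads on listed genes are only part of each library's depth, and counting error was smaller than the spread between replicates (chi-square per degree of freedom 3.72 and 3.83).

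The 6812 genes whose mean value reached 10 were fitted with limma (version 3.58.1, R version 4.3.3) on log2(value + 1), with group as the only term, with Benjamini-Hochberg adjustment over all of them. Fold changes on this scale understate the change of genes with few reads. The p-values measure only the spread between these libraries. Because the genes were listed for a difference in these same libraries, the adjusted p-values do not bound the share of false calls. Alternatives used edgeR (version 4.0.16) and DESeq2 (version 1.42.0) on the recovered reads, RLE, TMM and upper quartile scaling, a replicate block, other filters on low values, a smaller pseudocount (0.1), a test beyond 1.2-fold and each library left out. In data simulated for shUSP2-AS1 against shctrl, with 200 of 6804 genes changed by 1 on the log2 scale, limma recovered 96% and called 7 others, edgeR 96% and DESeq2 90%.

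Subunit, origin and site of the members and the related lists were written by hand, and members and lists were chosen with earlier results of these data known. Named in detail were USP2-AS1, for each subunit the 6 members with the lowest and the 4 with the highest log2 fold change, members at or beyond -1, listed members of named structural sites, and in each related list the genes with the lowest p in each direction, and other genes were named after their values were seen. The value of 1 gene that this rule would name is not reported here. Exon overlaps came from GENCODE release 44, in which all 33 members were found by identifier, and promoters from RefSeq (GRCh38.p14).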

Additional observations from a re-analysis of the deposited data

How the results depend on the processing

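The count of 33 members lower was kept under all scalings, filters, count tests and left-out libraries and was 25 in the test beyond 1.2-fold, and no direction was reversed. Without members whose exons overlap another gene it was 17, by construction, with a small subunit median of -0.78 and a difference of large minus small of 0.33. Under RLE scaling the medians were -0.64 for members, -0.58 for large and -0.79 for small subunit genes, and with DESeq2 and its own size factors -0.64, -0.57 and -0.78. Members at -1 or lower numbered 4 under both and 2 under TMM scaling. Under RLE scaling the genes higher were 0 of the mitoribosomal proteins with other symbols, 0 translation factors, 10 cytosolic ribosomal proteins and 3 mitochondrial mRNAs. Upper quartile scaling gave medians of -0.47 for members and -0.61 for small subunit genes, and the mean in place of the median gave -0.73 for small subunit genes. With each library left out, members at -1 or lower ranged from 1 to 2 (2 without shctrl replicate 2 or without shUSP2-AS1 replicate 2), and the difference of large minus small ranged from 0.15 to 0.21. Over the same 4 settings the log2 fold change of USP2-AS1 ranged from -2.99 to -1.78.

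With the replicate block, 33 members were lower and the median stayed at -0.53, and no call on a member changed. The replicate differences of the 2 groups had a correlation of -0.04 across genes, so no shared effect of the replicate number was seen. Whether the libraries were prepared in pairs cannot be read from this value. Only listed genes could be examined, with 2 libraries per group, so the members that were not listed and any spread between cultures beyond these remain unmeasured.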
